A study of Populus trichocarpa with 378 samples.

Results

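PtrCAD1 (Potri.009G095800) and PtrCAD2 (Potri.016G078300) are the 2 cinnamyl alcohol dehydrogenase (CAD) genes described here, out of 41334 genes in the count table, and they were taken by identifier, not by how they behaved. The identifiers are those of the P. trichocarpa genome v3.0. Their names come from the pairing of identifier and name by which the genes were chosen, since the table itself pairs no identifier with a name.

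Lignin is the phenolic polymer that stiffens and waterproofs the secondary cell walls of wood. Its monomers, the monolignols, are made from phenylalanine by a series of enzymes that deaminate, hydroxylate, methylate and reduce the aromatic precursor. CAD catalyzes the closing reduction of the pathway, in which a cinnamaldehyde becomes the corresponding alcohol, and plants with low CAD activity are known for lignin that contains aldehyde units.

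The transcripts were measured by RNA-seq in stem-differentiating xylem, the layer of newly forming wood under the bark, of 378 libraries from greenhouse-grown Populus trichocarpa (genotype Nisqually-1) in 6 batches. Each library was a pool of clonally propagated trees of 1 transgenic line, a line being 1 transformation event. A xylem-specific promoter, that of Ptr4CL3, drove every transgene. Trees of all groups were sampled at 6 months, and 3 wildtype pools were grown in each batch.

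The constructs directed at the pair were 6. In batch 3, i33 was an RNA interference (RNAi) knockdown of PtrCAD1 (9 pools of 3 lines), i34 a knockdown of PtrCAD2 (8 pools of 4 lines) and i35 a knockdown of both (9 pools of 3 lines). Constructs o65 (7 pools of 3 lines) and o66 (8 pools of 3 lines) carried a PtrCAD1 knockdown together with overexpression of PtrCAD2, also in batch 3. Construct o67 (9 pools of 3 lines, batch 1) overexpressed PtrCAD2 alone. The other 39 constructs, in 310 libraries, were directed at other enzymes or regulators of the pathway, by RNAi or by artificial microRNA, and named no CAD gene in their labels.

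Values are CPM, the usual scaling of counts to the library total, after TMM, a correction of library totals for differences in composition, and percentages are of the mean of the 3 wildtype pools of the batch. Library totals ranged from about 2118610 to 93545100 counts. Pools of a line are clonal, so the p-values count pools, not transformation events, as replicates, except where the pools of a line are added up. The study chose the lines of a construct to cover different levels of target expression. A difference in a target among lines therefore reflects that choice too, and tests among lines describe the chosen lines only. Reads from a transgene of PtrCAD1 or PtrCAD2 sequence cannot be told apart from reads of the native gene in these counts. In whole tissue, fewer xylem cells and less transcript per cell cannot be told apart either.

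The wildtype levels are in CPM, which is not corrected for gene length, so the 2 genes are not compared with each other in level. PtrCAD1 lay between 1491 and 3339 CPM over the 18 pools. The lowest and the highest batch means were 1879 ± 313 CPM in batch 4 and 2823 ± 453 CPM in batch 3 (SD, n = 3 each). PtrCAD2 lay between 2.70 and 19.7 CPM.

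**Figure D1:**
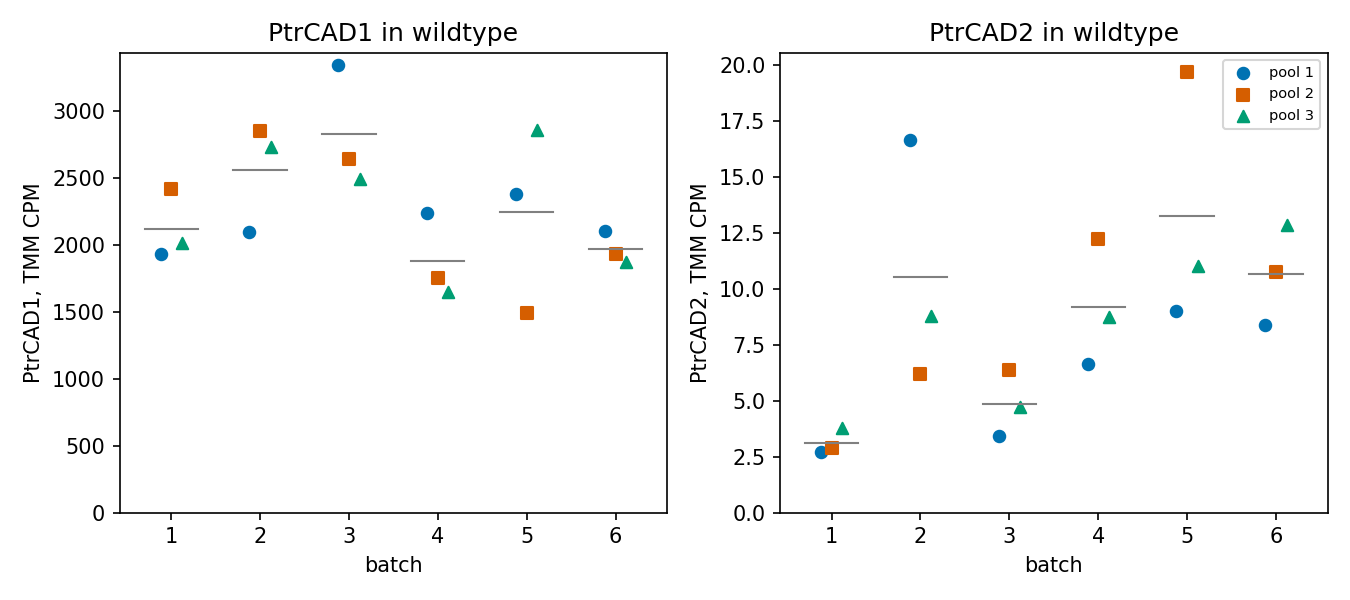
PtrCAD1 (left) and PtrCAD2 (right) in the 18 wildtype pools, in TMM CPM on the vertical axis, by batch on the horizontal axis; symbols mark pool numbers and grey bars the batch means. PtrCAD2 averaged 3.13 CPM in batch 1 and 13.2 CPM in batch 5, and PtrCAD1 lay between 1491 and 3339 CPM over all pools.

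The PtrCAD2 reference differed between batches, and the PtrCAD1 reference did not pass the test. PtrCAD2 had 2.70, 2.90 and 3.79 CPM in the wildtype pools of batch 1, from 17, 19 and 23 counts, and 3.43, 6.36 and 4.74 CPM in those of batch 3. In batch 5 it had 9.00, 19.7 and 11.0 CPM. Across the 6 batches edgeR's quasi-likelihood test gave an adjusted p of 0.00422 for PtrCAD2 and of 0.187 for PtrCAD1, where 54.5% of all genes tested differed between batches at an adjusted p under 0.05. Without the pools numbered 3, the adjusted p for PtrCAD2 was 0.0947. A percentage of wildtype for PtrCAD2 therefore rests on a different level in each batch, and in batch 1 on few counts. The counting error alone for those 3 pools spans 50.3 to 138%, 55.8 to 145% and 76.7 to 182% of their mean (exact 95% Poisson intervals, which cover counting error only).

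Some libraries stood apart before any comparison. The library labelled i33, line 5, pool 2 was more like wildtype pool 2 of its batch than any other pair of libraries in the series was alike, with Pearson r = 0.998 across genes, against 0.997 for the next closest of 71253 pairs. Its r with the other pools of its own line was 0.953 and 0.948. Both members had nearly the same level in that library and in the wildtype pool, at 2649 and 2640 CPM for PtrCAD1 and at 6.18 and 6.36 CPM for PtrCAD2. The 2 libraries still differed by more than sampling noise, with a chi-square per degree of freedom of 3.45 over genes. Pools of 1 line had between 1.72 and 1377 (median 16.4), and the i33 library had 45.2 with both other pools of its line. This ratio grows with depth and cannot tell 2 preparations of 1 RNA from different trees. Whether the label is right was not tested, and both libraries were kept as labelled. Results of i33 are given with and without the library labelled line 5, pool 2. In i35, pool 3 of line 1 was closer to pool 3 of line 15 (r = 0.995) than to the other pools of line 1 (r = 0.985 and 0.985). The 3 pools of line 7 of i35 stood apart from the whole batch, with a median r of 0.913, 0.905 and 0.917 with its libraries. Pool 1 of line 8 of i34 was closer to a pool of i20 (r = 0.986) than to the other pool of its line (r = 0.977). Likewise, pool 1 of line 21 of o66 was closer to pool 1 of line 7 (r = 0.9948) than to its own line (at most 0.9928). For pool 2 of line 16 of o65, a pool of o66 was closer (r = 0.983) than the other pool of its line (r = 0.978). In a41, pool 2 of line 7 and pool 2 of line 9 had a chi-square per degree of freedom of 1.38 (r = 0.991), below every pair within a line. In batch 4, pool 3 of line 10 of i26 and pool 3 of line 10 of a46 had r = 0.9904 with each other. The i26 pool had 0.947 and 0.953 with its own line, and the a46 pool had 0.917. The chi-square per degree of freedom of these 2 pools was 78.2, above the median within a line. It was 79.1 and 100.3 between the i26 pool and its own line, and 189.6 for the a46 pool.

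The knockdown of PtrCAD1 alone left widely different levels of its target in the 3 lines of i33. Line 5 had 5.30, 93.8 and 5.16% of the wildtype PtrCAD1 level, line 2 had 11.5, 16.7 and 11.3%, and line 10 had 58.9, 32.5 and 57.3%, against 118, 93.5 and 88.2% in the wildtype pools. All but 1 of the 9 pools lay below every wildtype pool, and the exception was the wildtype-like library of line 5. The log2 fold change was -1.62 (SE 0.73), with an unadjusted p of 0.0455 and an adjusted p of 0.304 in edgeR's quasi-likelihood test, so PtrCAD1 was not called in i33. In that comparison 0% of genes were called, while 4539 genes had an unadjusted p under 0.05 and DESeq2 called 530. Without the wildtype-like library the change was -2.01 (SE 0.66), with an adjusted p of 0.0942, and 1458 genes were called. With wildtype pool 2 left out as well, it was -2.05 (SE 0.77), with an adjusted p of 0.214.

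**Figure D2:**
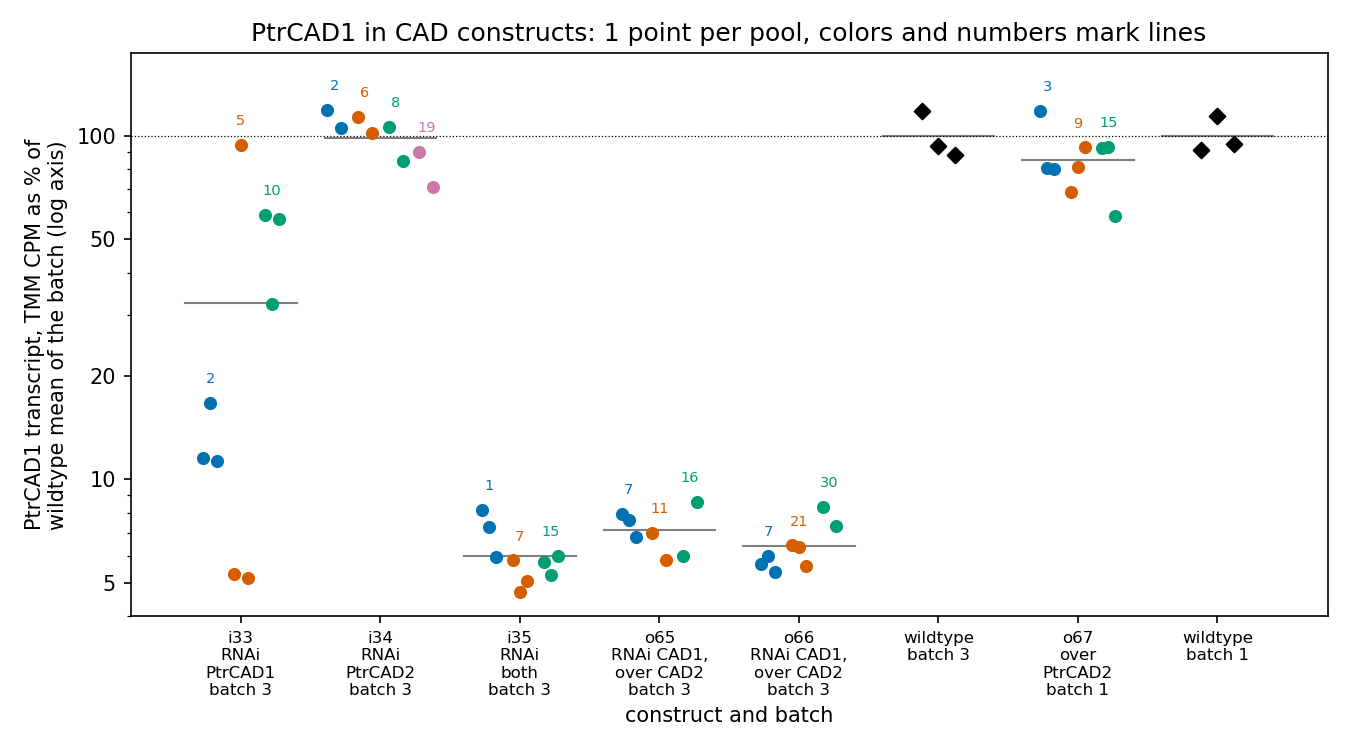
PtrCAD1 as a percentage of the wildtype mean of the batch (log axis) in the CAD constructs and the wildtype pools of batches 3 and 1; each point is a pool, colors and numbers mark lines, and grey bars are means. The pools of i35, o65 and o66 lie between 4.69 and 8.58%, those of i33 between 5.16 and 93.8%, and those of i34 and o67 around the wildtype pools.

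PtrCAD1 also differed among the lines of i33 once that library was set aside. The edgeR test of the 3 lines gave an adjusted p of 0.458 with all 9 pools, where 0.397% of genes tested differed among lines. Without the wildtype-like library it gave 0.00320, where 2293 of 28373 genes tested differed among lines. The pool left out was the highest of the construct in PtrCAD1, at 93.8%. Line 5 then had the lowest values, line 2 the middle ones and line 10 the highest, with no overlap between lines.

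PtrCAD2, which i33 does not name as a target, had levels around wildtype in that construct. The i33 pools ranged from 54.1 to 256% of wildtype with a median of 78.4%, and the wildtype pools had 70.8, 131 and 97.8%. Pool 1 of line 2 was the highest at 256%, while the other pools of the line had 54.1 and 78.4%. Line 10 was the most even, with 66.2, 67.1 and 64.7%. The log2 change over i33 was 0.11 (SE 0.44, adjusted p = 0.927 by edgeR's quasi-likelihood test), and PtrCAD2 did not pass the threshold among the lines either (adjusted p = 0.400). Without the wildtype-like library these were 0.07 (adjusted p = 0.942) and an adjusted p of 0.356.

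The construct directed at both genes, i35, had low PtrCAD1 in every pool. Line 1 had 8.16, 7.27 and 5.96% of wildtype, line 15 had 5.74, 5.26 and 5.99%, and line 7 had 5.81, 4.69 and 5.06%. The highest i35 pool lay far below the lowest wildtype pool at 88.2%. PtrCAD1 fell with a log2 fold change of -4.06 (SE 0.16) and an adjusted p of 6.68e-08 (edgeR's quasi-likelihood test), in a comparison in which 19.5% of genes tested were called. The lines differed slightly in PtrCAD1, with an adjusted p of 0.0305, where 47.4% of genes differed among the lines.

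The other target of i35, PtrCAD2, was low in some lines and not in others. Line 1 had 16.8, 17.96 and 40.3% of wildtype, line 15 had 65.3, 47.5 and 44.2%, and line 7 had 79.6, 83.0 and 139%. Lines 1 and 15 lay below all wildtype pools of batch 3, and line 7 overlapped them. Over the 9 pools the log2 fold change was -0.73 (SE 0.51, adjusted p = 0.317), which did not pass the threshold. Among the lines PtrCAD2 did differ, with an adjusted p of 0.00395 in edgeR's quasi-likelihood test (0.00122 without pool 3 of line 1). With line 7 left out, the change against wildtype was -1.37 and the adjusted p 0.0242, where 8048 of 28432 genes tested were called. The lowest PtrCAD2 values rest on few reads: pool 2 of line 1 had 14 counts, and its 17.96% has an exact 95% Poisson interval of 9.82 to 30.1%.

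PtrCAD2 in the i34 construct, directed at that gene alone, went in opposite directions in different lines. Line 19 had 32.1 and 38.6% of wildtype, line 8 had 19.0 and 34.99%, and line 6 had 81.3 and 20.3%. Line 2 had 443 and 425%, from 579 and 707 counts, above every wildtype pool and against the label of a knockdown. The 2 pools of line 2 were each other's closest library in the batch (r = 0.987). PtrCAD2 differed among the 4 lines with an adjusted p of 0.0156 by edgeR's quasi-likelihood test, where 2.78% of genes differed, and with an adjusted p of 0.645 when line 2 was left out.

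With all lines, PtrCAD2 in i34 changed by 0.46 on the log2 scale (SE 1.02, adjusted p = 0.828), where 1.28% of genes tested were called. Without line 2 the direction turned to -1.39 (SE 0.42), with an unadjusted p of 0.00773 and an adjusted p of 0.130, and all 6 remaining pools except 1 lay below the wildtype pools. PtrCAD1 was between 71.1 and 119% of wildtype in the i34 pools, with a log2 change of -0.02 (SE 0.17, adjusted p = 0.957).

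**Figure D3:**
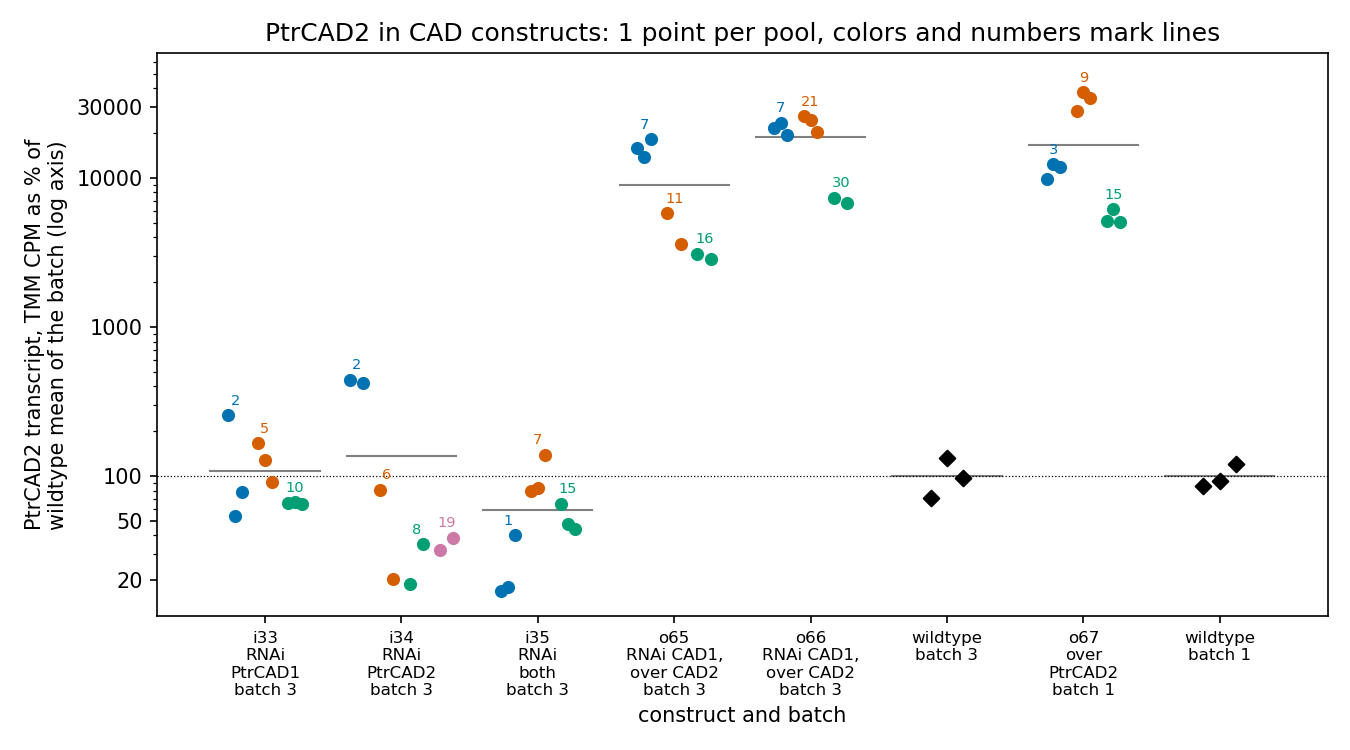
PtrCAD2 as a percentage of the wildtype mean of the batch (log axis) in the CAD constructs and the wildtype pools of batches 3 and 1; each point is a pool, colors and numbers mark lines, and grey bars are means. All pools of o65, o66 and o67 lie at 2882% or more, and both pools of line 2 of i34 lie above 400%, apart from the other lines of that construct.

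Constructs that combined the knockdown of PtrCAD1 with overexpression of PtrCAD2 showed both changes in every pool. In o65, PtrCAD1 was at 7.00 and 5.83% of wildtype in line 11, at 6.00 and 8.58% in line 16, and at 7.95, 7.63 and 6.81% in line 7. In o66 it ranged from 5.36 to 8.34% with a median of 6.17%. The log2 fold changes were -3.80 (SE 0.15, adjusted p = 1.51e-06) in o65 and -3.96 (SE 0.12, adjusted p = 1.18e-08) in o66, by edgeR's quasi-likelihood test. Of all genes tested, 1.94% were called in o65 and 32.6% in o66.

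PtrCAD2 rose in both constructs by amounts that differed between lines. In o65 it reached 5825 and 3592% of wildtype in line 11, 3109 and 2882% in line 16, and 15908, 13761 and 18180% in line 7. In o66, line 21 had 26000, 24684 and 20403%, line 7 had 21773, 23480 and 19408%, and line 30 had 7375 and 6752%. On the CPM scale the highest of these pools had 1260 CPM and the lowest 140 CPM, against 3.43, 6.36 and 4.74 CPM in the wildtype pools.

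The log2 fold change of PtrCAD2 against wildtype was 6.51 (SE 0.89, adjusted p = 0.0112) in o65 and 7.57 (SE 0.62, adjusted p = 1.13e-05) in o66. In o65 the call was lost without wildtype pool 2 (6.75, adjusted p = 0.0761), without wildtype pool 3 (6.49, adjusted p = 0.0589), and with the pools of a line added up (6.30, adjusted p = 0.0901), although no o65 pool overlapped wildtype. Lines differed in PtrCAD2 in o65 (adjusted p = 0.00715, where 8.75% of genes differed among lines) and in o66 (adjusted p = 0.00187, where 1.65% did). The test of PtrCAD1 among lines gave an adjusted p of 0.628 in o65 and of 0.0547 in o66, where line 30 had the highest values at 8.34 and 7.31%.

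In the lines chosen for o67, which overexpressed PtrCAD2 alone, PtrCAD2 lay at 3 separate levels, 1 for each line. Line 15 had 162, 194 and 159 CPM, line 3 had 310, 389 and 373 CPM, and line 9 had 884, 1177 and 1079 CPM, against 2.70, 2.90 and 3.79 CPM in the wildtype pools of batch 1. As percentages of wildtype, the pools ranged from 5062 to 37557%, with a median of 11898%. The lines did not overlap, and their difference had an adjusted p of 3.56e-04 in edgeR's quasi-likelihood test, where 0.450% of genes tested differed among the lines.

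Against wildtype, PtrCAD2 in o67 had a log2 fold change of 7.39 (SE 0.98) with an adjusted p of 0.0193, and 0.189% of genes tested were called. That adjusted p was 0.186 without wildtype pool 1, 0.198 without wildtype pool 2 and 0.0183 without wildtype pool 3, with a log2 change of at least 7.29 in each of the 3. PtrCAD1 did not change by the test. It ranged from 58.5 to 118% of wildtype in o67 with a median of 81.3%, against 91.1, 114 and 94.8% in the wildtype pools, and its log2 change was -0.23 (SE 0.16, adjusted p = 0.463).

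Constructs of batch 3 were also compared directly. Since lines were chosen for varying target levels, the effect of a further target or transgene cannot be told apart from the choice of lines. PtrCAD1 was lower in i35 than in i33, with a log2 fold change of -2.44 (SE 0.49, adjusted p = 9.19e-04), and lower in i35 than in i34, with -4.02 (SE 0.14, adjusted p = 3.39e-12). The shares of genes called were 38.5% and 32.2%. Without the wildtype-like i33 library, the difference between i35 and i33 was -2.05 (SE 0.44, adjusted p = 0.00170). With the pools of each line added up, it was -2.33 with an adjusted p of 0.0778. The pools of i35 and i33 still overlapped, since line 5 of i33 had 5.30 and 5.16% in the pools other than the wildtype-like one, within the range of 4.69 to 8.16% in i35.

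PtrCAD1 was likewise lower in o65 than in i33 (-2.18, SE 0.56, adjusted p = 0.0209, where 10.6% of genes were called) and lower in o66 than in i33 (-2.36, SE 0.52, adjusted p = 0.00196, where 39% were called). Without the wildtype-like library these were -1.79 (adjusted p = 0.0270) and -1.97 (adjusted p = 0.00288). The o65 call was lost when line 7, line 11 or line 16 of o65 or line 10 of i33 was left out, with adjusted p between 0.0640 and 0.0932, and with the pools of a line added up (-2.10, adjusted p = 0.228). PtrCAD1 in o66 against o65 differed by -0.18 (SE 0.10, adjusted p = 0.254, where 16.4% of genes were called), and by -0.29 without line 30 of o66 (adjusted p = 0.0390).

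For PtrCAD2, the overexpressing constructs stood far above i33, by 6.40 in o65 (SE 0.52, adjusted p = 1.95e-05) and by 7.44 in o66 (SE 0.42, adjusted p = 2.05e-08). With the pools of a line added up, the o65 call was lost (6.19, adjusted p = 0.200). Without the wildtype-like library the differences were 6.44 in o65 (adjusted p = 1.17e-04) and 7.47 in o66 (adjusted p = 1.81e-07). Between o66 and o65 the difference was 1.04 (SE 0.44, adjusted p = 0.123), and 2.26 with an adjusted p of 0.00198 when the high line 7 of o65 was left out. In that fit 7350 of 28719 genes tested were called. Line 7 had the highest PtrCAD2 of o65, so leaving it out widens the difference by construction. The double knockdown did not differ from either single knockdown by the test, with -0.83 against i33 (SE 0.39, adjusted p = 0.1002, or -0.79 and 0.136 without the wildtype-like library) and -1.15 against i34 (SE 0.66, adjusted p = 0.194). Without line 7 of i35, the difference from i33 was -1.47, with an adjusted p of 0.00737, where 11762 of 27846 genes tested were called. The i34 comparison reversed to 0.69 (adjusted p = 0.267) without line 2 of i34.

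Beside the pair, 21 further identifiers set down as monolignol pathway candidates were followed in the CAD constructs; the table does not annotate them, so they are given as a list of identifiers and no role is assigned. All 21 were tested in each construct. In i35, 10 were called lower and 0 higher by edgeR's quasi-likelihood test, with a median log2 change of -0.59, against 0.03 over all genes, of which 3201 were called higher and 2642 lower. Without line 7, whose pools stood apart from the batch, 13 were called lower and 0 higher, with a median of -0.45. In that fit 4206 of the 28432 genes tested were called lower and 3842 higher. With all lines, the lowest called was Potri.005G117500, at -1.23 (adjusted p = 0.0180). In o66, 6 were called lower and 2 higher, with a median of -0.15, against 0.02 over all genes. Of the 28569 genes tested there, 4574 were called higher and 4740 lower, or 32.6% in all. The list counts in o66 lie near that share and were not read as a result.

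In the other CAD constructs edgeR called 0 of the 21. Those with an unadjusted p under 0.05 numbered 10 in i33, 2 in i34, 3 in o65 and 4 in o67, and DESeq2 called 2 in i33, 0 in i34, 0 in o65 and 1 in o67. The counts over all genes in i33 are given above. For the others, fits with 1 line left out give a background of unadjusted p under 0.05. These are not the full fits that gave the list counts. The lowest counts of that background were 5531 of 29010 genes in i34, 4881 of 29319 in o65 and 3444 of 24244 in o67. Its highest were 6761 of 29023, 8685 of 28506 and 5721 of 24404. The list counts in i34, o65 and o67 were therefore not read as a result. Without the wildtype-like library, edgeR called 6 lower and 0 higher in i33, with a median of -0.23, where 520 of all genes were called higher and 938 lower. Median log2 changes of the list were -0.21, -0.23, -0.33 and -0.20 in these 4 constructs, against 0.01 over all genes in each. The constructs of batch 3 share the same 3 wildtype pools.

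In constructs directed at other genes, construct means of PtrCAD1 spanned a narrower range than those of PtrCAD2. The 39 construct means of PtrCAD1 lay between 71.3 and 115% of wildtype with a median of 92.1%, and 32 of them were below 100%. Those of PtrCAD2 lay between 46.03 and 519% with a median of 86.2%, and 18 of them were above 100%. In edgeR's quasi-likelihood test PtrCAD1 was called in 0 of the 39 constructs, with 1 unadjusted p under 0.05 and 0 calls by DESeq2. PtrCAD2 was called in 2, i15 and i24, with 12 unadjusted p-values under 0.05 and 4 calls by DESeq2.

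**Figure D4:**
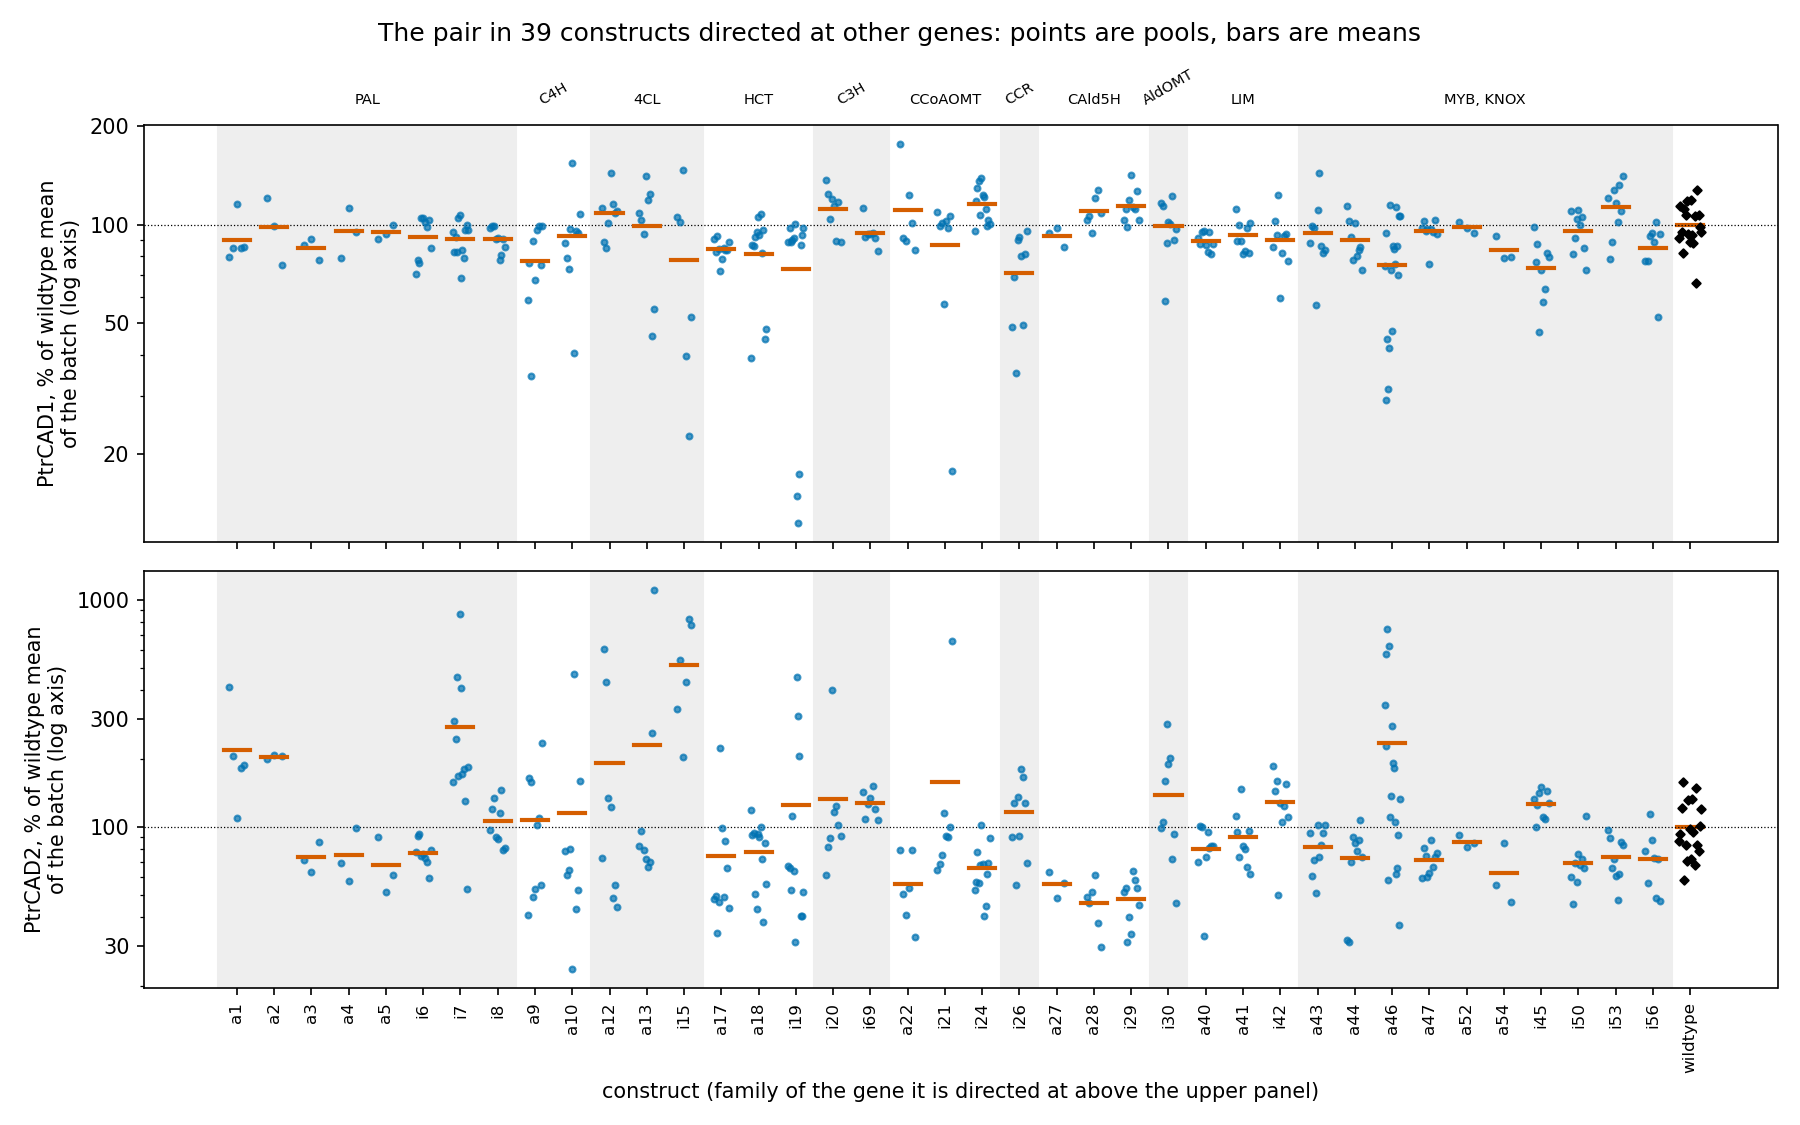
PtrCAD1 (upper panel) and PtrCAD2 (lower panel) as percentages of the wildtype mean of the batch (log axes) in the 39 constructs directed at other genes, grouped by the family of the target, with the 18 wildtype pools at the right; points are pools and orange bars are means. PtrCAD1 falls below 50% in 21 of the 310 libraries, among them the 3 pools of line 7 of i19, and PtrCAD2 reaches its highest mean, 519%, in i15.

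The first step of the pathway, deamination by phenylalanine ammonia-lyase (PAL), was targeted by 8 constructs. Single knockdowns of PtrPAL1 (a1) and PtrPAL3 (a2) and the knockdown of PtrPAL2, 4 and 5 (i7) were grown in batch 1, where the wildtype PtrCAD2 level was lowest. There PtrCAD2 averaged 219% ± 113 in a1 (SD, n = 5), 204% ± 3.90 in a2 (n = 3) and 276% ± 218 in i7 (n = 12). On the CPM scale, the 20 libraries of these constructs had a median PtrCAD2 level of 6.05 CPM, against 3.13 ± 0.58 CPM in wildtype. None of the 3 was called, with adjusted p of 0.204, 0.364 and 0.404, where 0.608, 0.00426 and 0.0680% of all genes were called.

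The 5 PAL constructs of batch 2 did not share that level. PtrCAD2 averaged 73.6% ± 11.4 in a3 (PtrPAL4, n = 3), 75.4% ± 20.9 in a4 (PtrPAL5, n = 3), 67.8% ± 19.9 in a5 (PtrPAL2, n = 3), 77.1% ± 10.1 in i6 (PtrPAL1 and 3, n = 9) and 106% ± 24 in i8 (all PtrPAL genes, n = 9). The wildtype SD in that batch was 51.6%. The genes called were 4.80% in a3, 3.40% in a4, 7.42% in a5, 5.10% in i6 and 10.2% in i8. PtrCAD1 averaged between 85.0 and 98.4% over the 8 PAL constructs.

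Cinnamate 4-hydroxylase (C4H), 4-coumarate:CoA ligase (4CL) and hydroxycinnamoyl transferase (HCT) act next. In the C4H knockdowns a9 and a10, PtrCAD1 averaged 77.4% ± 21.5 and 92.1% ± 30.1 and PtrCAD2 107% ± 66.2 and 115% ± 139 (n = 9 each), with 0.00992% of genes called in a10. In a9 0% of genes were called by edgeR, with 2143 at an unadjusted p under 0.05 and 46 called by DESeq2. Pool 3 of line 14 of a10 combined 40.7% for PtrCAD1 with 472% for PtrCAD2, and pool 2 of the same line had 154% and 23.7%. That pool 2 also had the lowest TMM factor of all libraries, 0.259.

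The knockdown of both Ptr4CL3 and Ptr4CL5, i15, was the construct in which PtrCAD2 rose. It had 332% of wildtype in line 1, 545 and 203% in line 2, and 433, 820 and 778% in line 3, against 78.6, 100.8 and 121% in the wildtype pools of batch 6. All 6 pools lay above wildtype. The log2 fold change was 2.39 (SE 0.47, adjusted p = 0.00343), and the call held in all 9 alternative settings tried, with adjusted p between 1.08e-06 and 0.0194. The background was wide, since 56.2% of all genes tested were called in i15. PtrCAD1 in the same pools was 105% in line 1, 102 and 147% in line 2, and 39.9, 22.7 and 52.2% in line 3, with a log2 change of -0.35 (SE 0.53, adjusted p = 0.589). Line 3 thus combined the lowest PtrCAD1 and 3 of the 4 highest PtrCAD2 values of the construct.

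Single knockdowns of the 4CL genes were uneven in PtrCAD2 without a call. In a12 (Ptr4CL3), line 10 had 73.2, 610 and 435%, while lines 4 and 7 were between 44.5 and 134%. In a13 (Ptr4CL5), line 6 had 260 and 1101%, and its PtrCAD1 was 45.8 and 55.1%, while lines 4 and 20 had 66.6 to 96.2% for PtrCAD2 and 93.8 to 140% for PtrCAD1. Shares of genes called were 0.546% in a12 and 0% in a13, where 1677 genes had an unadjusted p under 0.05 and DESeq2 called 149.

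Line 7 of i19, directed at PtrHCT1 and PtrHCT6, had the lowest PtrCAD1 of any library outside the CAD constructs. Its pools had 14.9, 12.4 and 17.4% of wildtype, whereas the 9 pools of its other lines had 86.9 to 100%. The same 3 pools had 456, 308 and 205% for PtrCAD2, against 31.1 to 112% in the other lines. The construct as a whole was not called for either gene (PtrCAD1 -0.46, SE 0.59, adjusted p = 0.881; PtrCAD2 0.33, SE 0.79, adjusted p = 0.931). In it 0% of genes were called by edgeR, with 1317 at an unadjusted p under 0.05 and 60 called by DESeq2. Without line 7 the changes were -0.11 for PtrCAD1 and -0.79 for PtrCAD2 (adjusted p = 0.883 and 0.502). Single HCT knockdowns a17 and a18 had PtrCAD1 means of 84.1% ± 5.70 (n = 10) and 81.2% ± 23.7 (n = 12), with 7.37 and 0.0440% of genes called.

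Ring hydroxylation and methylation of the pathway intermediates involve p-coumarate 3-hydroxylase (C3H), caffeoyl-CoA O-methyltransferase (CCoAOMT), coniferaldehyde 5-hydroxylase (CAld5H) and an aldehyde O-methyltransferase (AldOMT). In the knockdown of PtrC3H3 (i20) PtrCAD1 averaged 111% ± 16.8 (n = 8), and in that of PtrC3H3 with both C4H genes (i69) 94.1% ± 8.92 (n = 7). PtrCAD2 averaged 133% ± 110 and 127% ± 16.8 in the same constructs. Genes called made up 11.8% in i20 and 4.23% in i69.

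PtrCAD2 fell in i24, the knockdown of PtrCCoAOMT1 and 2, though the call was sensitive. Its 12 pools ranged from 40.5 to 102% with a median of 64.9%, against 78.6, 100.8 and 121% in wildtype. The log2 fold change was -0.62 (SE 0.20, adjusted p = 0.0477), where 13.9% of genes were called. The adjusted p lay between 0.0563 and 0.291 when any 1 wildtype pool was left out, and was 0.886 in a fit of all libraries of the batch. PtrCAD1 averaged 115% ± 14.7 in i24, the highest mean of the 39 constructs, with a log2 change of 0.20 (SE 0.11, adjusted p = 0.271). The knockdowns of PtrCCoAOMT1 (a22) and PtrCCoAOMT3 (i21) had PtrCAD2 means of 56.1% ± 19.5 (n = 6) and 158% ± 204 (n = 8), with 0.313% of genes called in a22 and 0% in i21, where 1136 genes had an unadjusted p under 0.05 and DESeq2 called 113. In i21, pool 2 of line 8 alone had 17.8% for PtrCAD1 and 661% for PtrCAD2, and the other pool of the line had 106% and 100.4%. The 2 pools had r = 0.674 with each other across genes, the lowest of all pairs within a line. They thus differed in far more than these 2 genes.

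All 18 pools of the 3 CAld5H constructs lay below every wildtype pool of batch 5 in PtrCAD2. They ranged from 29.5 to 64.1% of wildtype, against 68.0, 149 and 83.2% in the wildtype pools. The log2 changes were -0.91 in a27 (SE 0.31, adjusted p = 0.0970), -1.17 in a28 (SE 0.28, adjusted p = 0.0839) and -1.08 in i29 (SE 0.25, adjusted p = 0.0666), none past the threshold in edgeR's quasi-likelihood test. DESeq2 called a28 and i29 (adjusted p = 0.0100 and 0.00959). The edgeR results for a27, a28 and i29 depended on single wildtype pools. Without wildtype pool 1 all 3 were called (adjusted p = 0.0350, 0.0419 and 0.0235). Without pool 2 the changes were -0.44, -0.73 and -0.64 (adjusted p = 0.125, 0.217 and 0.336). Without pool 3 none was called either (adjusted p = 0.125, 0.175 and 0.118). The shares of all genes called by edgeR were 13.9% in a27, 0.929% in a28 and 0.868% in i29. Low PtrCAD2 percentages were common in that batch: 33 of the 63 libraries of its other constructs also lay below the lowest wildtype pool. PtrCAD1 was between 85.3 and 142% in the 18 pools.

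In i30, the knockdown of PtrAldOMT2, PtrCAD1 averaged 98.6% ± 19.1 and PtrCAD2 139% ± 75.2 (n = 9), with 0.709% of genes called. Cinnamoyl-CoA reductase (CCR) makes the aldehydes that CAD reduces. The knockdown of PtrCCR2, i26, had a PtrCAD1 mean of 71.3% ± 21.8 (n = 9), the lowest of the 39 constructs. Without the pool that resembled one of a46, the mean was 75.8% ± 18.3 (n = 8), above those of i19 (73.2%) and i45 (73.9%). Line 10 of i26 had 48.8, 69.1 and 35.3%, line 9 had 49.6, 81.4 and 95.6%, and line 4 had 89.4, 91.9 and 80.4%, against 119, 93.2 and 87.8% in the wildtype pools of batch 4. The log2 change was -0.46 (SE 0.29, adjusted p = 0.519), or -0.37 without that pool (adjusted p = 0.561), and 0% of genes were called, with 3786 at an unadjusted p under 0.05 and 560 called by DESeq2. PtrCAD2 in i26 averaged 116% ± 42.5.

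Constructs directed at regulators included 3 for LIM-domain proteins and 10 for MYB or KNOX transcription factors. In the LIM constructs a40, a41 and i42, PtrCAD1 averaged 89.0% ± 5.41, 92.7% ± 10.3 and 89.8% ± 17.4 (n = 9 each), with 2.29, 0.161 and 0.0503% of genes called. In the regulator constructs of batch 2, genes called made up 0.00413% in a43, 0.00428% in a44, 9.50% in a47 and 4.73% in i45. PtrCAD2 averaged 81.4% ± 18.3 in a43 (PtrMYB167), 72.8% ± 25.7 in a44 (PtrMYB090) and 71.3% ± 9.74 in a47 (PtrMYB221), with n = 9 each. PtrCAD1 in i45, directed at PtrMYB090 and 167, averaged 73.9% ± 15.6 and had the only unadjusted p under 0.05 for that gene (log2 change -0.45, SE 0.18, unadjusted p = 0.0223, adjusted p = 0.152). PtrCAD2 in i45 averaged 126% ± 17.5.

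The construct a46, directed at PtrMYB156 in batch 4, had the highest SD of both genes among regulator constructs, 27.9% for PtrCAD1 and 216% for PtrCAD2. Over 17 pools of 6 lines PtrCAD1 ranged from 29.2 to 115% with a median of 75.9%, and PtrCAD2 from 37.1 to 743% with a median of 136%. Pools of the same line disagreed: in line 3, PtrCAD1 was at 41.99, 115 and 72.7% and PtrCAD2 at 624, 111 and 136%. Neither gene was called (PtrCAD2 log2 change 1.22, SE 0.79, adjusted p = 0.750, or 1.28 and 0.718 without the pool that resembled one of i26), and 0% of genes were called, with 2064 at an unadjusted p under 0.05 and 87 called by DESeq2. Of the other MYB and KNOX constructs, genes called made up 0.141% in i50, 6.11% in i53 and 0.00744% in i56. They made up 0% in a52 and 0% in a54, with 1853 and 3860 genes at an unadjusted p under 0.05 and 68 and 683 called by DESeq2. PtrCAD2 averaged between 62.4 and 86.2% in these 5 constructs, and PtrCAD1 between 83.8 and 113%.

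The pair was also compared library by library outside the CAD constructs. PtrCAD1 was below 50% of wildtype in 21 of the 310 libraries, from 10 constructs, and in 16 of these PtrCAD2 was above 100%, compared with 109 of all 310. PtrCAD2 was above 200% in 35 libraries from 14 constructs, and in 29 of them PtrCAD1 was below 100%, compared with 212 of all 310. Between the log2 percentages of the pair, Pearson r was -0.43 and Spearman rho -0.32 over the 310 libraries, and r was -0.40 without the 2 libraries farthest from the median of PtrCAD1. With CPM that had no TMM factors, the same libraries had r = -0.27, rho = -0.21 and r = -0.22 without the 2 farthest. Within batches 1 to 6, r was -0.30 (n = 20), -0.33 (n = 90), -0.07 (n = 15), -0.35 (n = 44), -0.67 (n = 81) and -0.66 (n = 60). Without the 2 farthest libraries of each batch these were -0.23, -0.37, 0.43, -0.41, -0.44 and -0.58, so the sign turned in batch 3.

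Over means of the 39 constructs, r was -0.39 and rho -0.29, and over means of their 117 lines r was -0.44 and rho -0.33. The 18 wildtype pools, taken as percentages of their own batch mean, had r = -0.75 and rho = -0.75, with r = -0.76 without the 2 farthest. In CPM, with the batch differences left in, wildtype had r = -0.43, and -0.16 without the 2 farthest pools. In batch 5, wildtype pool 2 had both the lowest PtrCAD1 (66.5%) and the highest PtrCAD2 (149%) of its batch. These are descriptions with no test: both values of a point come from 1 library and share its total, and all points of a batch share the same 3 wildtype pools.

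**Figure D5:**
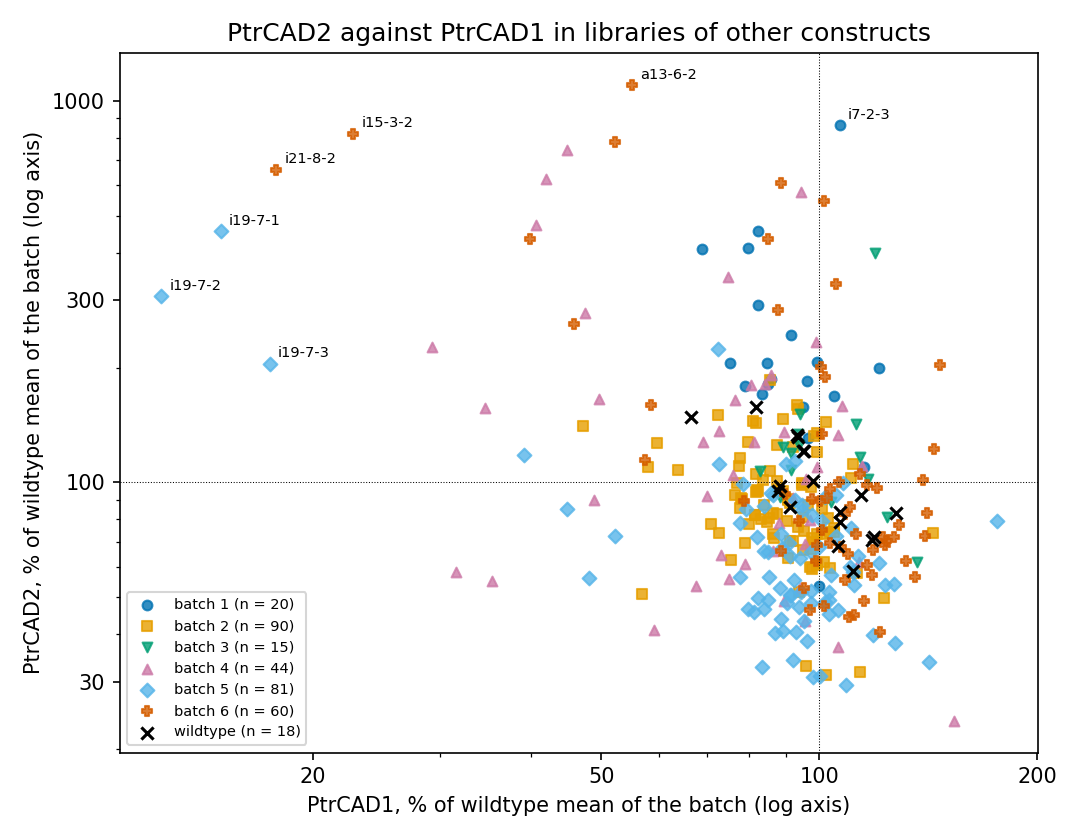
PtrCAD2 against PtrCAD1, each as a percentage of the wildtype mean of the batch (log axes), in the 310 libraries of other constructs by batch and in the 18 wildtype pools (crosses). The pools of line 7 of i19 and single pools of i15 and i21 lie at the upper left, with PtrCAD1 below 25% and PtrCAD2 above 200%.

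Lines 2 and 5 of i33, without the wildtype-like library, had PtrCAD1 at 5.16 to 16.7% of wildtype. Their PtrCAD2 values were 256, 54.1 and 78.4% in line 2 and 167 and 92.0% in line 5, on both sides of the wildtype mean. In o67, whose PtrCAD2 ranged from 5062 to 37557%, PtrCAD1 lay between 58.5 and 118% with all 3 lines overlapping.

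Genes with the pattern most like each member were ranked by Pearson r over the means of the 39 other constructs, as log2(CPM + 1) minus the wildtype mean of the batch, among the 25718 other genes that averaged 1 CPM or more. For PtrCAD1 these were Potri.009G006500 (r = 0.86), Potri.001G375700 (0.81), Potri.015G012500 (0.81), Potri.006G181900 (0.80) and Potri.001G118800 (0.79). Their r with PtrCAD1 across the 18 wildtype pools was 0.93, 0.92, 0.84, 0.83 and 0.64. The wildtype r used log2(CPM + 1) with the batch differences left in, unlike the construct r. The construct values also subtract the means of these same pools, so the wildtype r is not an independent check. For PtrCAD2 they were Potri.003G162500 (0.87), Potri.008G028200 (0.86), Potri.011G117000 (0.86), Potri.T091200 (0.86) and Potri.002G213100 (0.86), with 0.30 to 0.40 across wildtype pools.

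The r of these genes, not the ranking, was recomputed without the 2 constructs farthest from the median of the member. Without i15 and i7, the r of its 5 genes was 0.74 to 0.78, and without i19 and i15 that of the 5 PtrCAD1 genes was 0.75 to 0.86. The pair themselves had r = -0.47 on this scale. Read from PtrCAD1, only 392 of the 25718 genes had an r as low as or lower than PtrCAD2, whereas read from PtrCAD2, 4303 genes had an r as low as or lower than PtrCAD1.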

How the data were processed

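Per the labels and the methods of the study, the authors made libraries of stem-differentiating xylem with the TruSeq kit, sequenced them on an Illumina GAIIx, used Bowtie and TopHat to map the reads to the P. trichocarpa assembly v3.0, and used BedTools to count them by gene. Values as deposited by the authors are raw counts, before the TMM normalization the authors applied later. Treatment of reads that map to several genes, and use of strand, are not given in the sources used here. The table holds 41334 genes, 531 of them with no count. One column of a12 has pool number 2 where the labels have 3. That column matched no label and was used as a pool of its construct.

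Levels are CPM with TMM factors over all 378 libraries, as a percentage of the wildtype mean of the batch. Tests used R 4.3.3 with edgeR 4.0.16 (filterByExpr, TMM, estimateDisp, glmQLFit, glmQLFTest) over all genes, with Benjamini-Hochberg adjustment and a threshold of 0.05. Each SE is the log2 fold change divided by the square root of its F. DESeq2 1.42.0 was an alternative, beside RLE factors, no filter, added-up pools of a line, a fit per batch, the pool number as a block, and leaving out wildtype pools, lines or pools. Tables and figures used Python 3.11.15, pandas 2.3.3 and matplotlib 3.10.9.

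The test scripts were first tested on simulated data with known changes. The genes, lists and tests were chosen with earlier results of these data known. Apart from both members, the genes named are the 5 with the highest r with each. The pathway list is 21 identifiers, used by identifier alone: a reference table of the assembly P.trichocarpa_v4.1 matched 0 identifiers, so the CAD-like and cell type marker lists, which rest on its descriptions, could not be used, and the tissue label was not checked against markers. Gene lengths were not used here, and no sequence is shown.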

Additional observations from a re-analysis of the deposited data

Results flagged for a closer look

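Within each construct of 4 to 10 pools, the highest or lowest pool was compared with the rest by Dixon's gap ratio, for both genes, in 66 sets. Of these, 10 had a pool that stood apart. The usual rate of about 1 in 20 sets holds for independent values with a normal distribution. Percentages of pools grouped by line need not be such values, so the 10 are not compared with that rate.

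For PtrCAD2, 5 of them were high and far from the others: pool 3 of line 14 of a10 at 472% of wildtype (next 159%, 9 pools), pool 2 of line 6 of a13 at 1101% (next 260%, 8 pools), pool 3 of line 10 of a17 at 223% (next 99.0%, 10 pools), pool 1 of line 2 of i20 at 400.2% (next 124%, 8 pools) and pool 2 of line 8 of i21 at 661% (next 115%, 8 pools). PtrCAD1 in the same pools was 40.7, 55.1, 72.4, 119 and 17.8%. Pool 3 of line 8 of i50 was high at 112% (next 75.9%, 9 pools), and pool 1 of line 10 of a40 was low at 33.1% (next 70.3%, 9 pools).

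For PtrCAD1, pool 3 of line 1 of a1 was high at 115% (next 85.7%, 5 pools), pool 1 of line 10 of i69 was high at 112% (next 93.9%, 7 pools), and pool 2 of line 5 of a47 was low at 75.6% (next 93.5%, 9 pools). The part of depth, RNA quality or labels in these values was not tested.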

How the results depend on the processing

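Of the 38 tested results, 20 kept their direction and their side of the threshold in every alternative run, and 24 of 24 mean percentages of wildtype moved by less than 1 SD with TMM factors within the batch or with no factors. For each remaining result the cause of the change was not tested. With the pools of a line added up, PtrCAD2 in o65 against wildtype (6.30, adjusted p = 0.0901) and in o65 against i33 (6.19, adjusted p = 0.200), and PtrCAD1 in i35 against i33 (-2.33, adjusted p = 0.0778) and in o65 against i33 (-2.10, adjusted p = 0.228) lost the call, on fewer samples. PtrCAD1 among lines of o66 passed with DESeq2 (adjusted p = 3.72e-05) and with no filter (adjusted p = 0.0499). Left-out libraries chosen after seeing the data changed PtrCAD1 among lines of i33 (0.00320), PtrCAD2 among lines of i34 (0.645), PtrCAD2 in i34 against wildtype (-1.39) and PtrCAD2 in i35 against i34 (0.69).

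Leaving out 1 wildtype pool or 1 line at a time gave log2 ranges of -0.089 to 0.37 for PtrCAD2 in i33 against wildtype, -0.11 to 0.12 for PtrCAD1 and -1.39 to 0.80 for PtrCAD2 in i34, -1.37 to -0.38 for PtrCAD2 in i35, 5.30 to 6.85 in o65 and 6.40 to 7.81 in o67. Between constructs the ranges were -1.47 to -0.47 for PtrCAD2 in i35 against i33, -1.83 to 0.69 in i35 against i34 and 0.70 to 2.26 in o66 against o65, and -2.56 to -1.75 for PtrCAD1 in o65 against i33 and -0.29 to -0.085 in o66 against o65. The adjusted p of PtrCAD2 across wildtype batches lay between 0.0130 and 0.0947.

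Among the 39 other constructs, PtrCAD1 was called lower in 0 to 1 and PtrCAD2 higher in 1 to 2 and lower in 0 to 3 when 1 wildtype pool or 1 pool was left out. PtrCAD2 in i33 also turned negative without line 2 (-0.041) or line 5 (-0.048), and PtrCAD1 in i34 turned positive without line 19 (0.068). PtrCAD2 was called lower in 3 with DESeq2, in 0 with no filter and in 0 with all libraries of the batch in one fit, against 1 with edgeR's quasi-likelihood test as used above.

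Pool numbers did not pair libraries: same-numbered pools of a CAD construct and wildtype had a correlation of deviations over 0.1 in 1 of 17 cases, and 2 of 17 correlated best with their own number. With the pool number as a block, 27 of 28 results stayed as they were, and PtrCAD2 in i33 against wildtype became -0.034 (adjusted p = 0.979), not called with or without the block. Depth limits PtrCAD2 more than PtrCAD1, since wildtype pools of batch 1 held 17 to 23 counts of it.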
